A study of Hydra vulgaris with 22 samples.

Results

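The transcripts described here are 93 stems of a Hydra transcriptome whose most abundant contig was one sequence in epidermal epithelial stem cells and another in gastrodermal epithelial stem cells. A contig is an assembled transcript sequence. A stem is the shared first part of the identifiers of related contigs, so that c23980_g1_i01 and c23980_g1_i02 both belong to the stem c23980_g1. The deposited table held 61501 contigs in 44306 stems, and 8844 stems had at least 2 contigs. Counts were scaled to CPM, the usual unit of counts relative to the library total, and 2478 of those stems reached a summed group mean of 10 CPM in each of the 4 epithelial groups named below. A stem was a member when one contig made up at least 50% of its CPM in both epidermal groups and a different contig did so in both gastrodermal groups. These 93 members were 3.75% of the 2478 stems. In 1841 stems 1 contig led in both layers, and in 544 no contig reached 50% in every group. The members were thus chosen by the measured shares of their contigs in the layers, and those shares are given below as a description without a test.

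Polyadenylated RNA from the central body column of Hydra vulgaris, strain AEP, was sequenced from untreated animals fed 3 times weekly and then kept without food for a stated number of days. The 20 sorted libraries came from flow cytometry for eGFP, a fluorescent reporter. Epidermal epithelial stem cells (eESC) and gastrodermal epithelial stem cells (gESC) were taken from actin::eGFP animals with the gate for high eGFP, in which the actin promoter drives the reporter and the labelled layer differs. The groups were eESC_10d (10 days without food, n = 4), eESC_3d (3 days, n = 3), gESC_10d (10 days, n = 3) and gESC_3d (3 days, n = 3). Interstitial stem cells (ISC) came from cnnos1::eGFP animals, whose reporter is under the promoter of a nanos gene. ISC_medium (n = 3) was the medium gate, with 5, 3 and 3 days without food in replicates A to C, and ISC_high (n = 4) was the high gate, with 2, 3, 3 and 5 days in replicates A to D. Unsorted body columns at 10 days gave 1 library of actin::eGFP animals labelled in eESC and 1 of cnnos1::eGFP animals. The label of the cnnos1 library names gESC as the cells with eGFP, and it is called here by its promoter alone. The labels do not say whether replicates came from separate animals or sorts, so p-values measure the spread between these libraries, which may be technical. In the ISC groups this spread also takes in the days without food, which differed between replicates.

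The body wall of Hydra, a freshwater polyp, is built of an epidermis on the outside and a gastrodermis lining the gut, and the epitheliomuscular cells of either layer divide in the body column as stem cells. Interstitial stem cells lie mostly between the epidermal cells and give rise to nerve cells, stinging cells, gland cells and germ cells. In an assembled transcriptome, contigs of one stem can be alternative transcripts of a gene, alleles, or near-identical copies, and a quantification tool divides reads among contigs that share sequence. The files do not say which of these the contigs of a stem are. No identifier could be paired with a gene name, with 0 of 61501 contigs and 0 of 44306 stems matching a reference table of 28925 Hydra genes. The members are therefore described by identifier, with no function, and the sorted populations could not be checked against known marker genes.

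In place of named markers, stems that set the populations apart in the 3-day and ISC_high libraries were used to look at the other libraries, a choice made after seeing the data. The 42 stems that marked gESC had at least 50 CPM in every gESC_3d library and at most 1 CPM in every eESC_3d and ISC_high library, and none was a member. Their summed level in eESC_10d was 300 CPM in replicate C, against 21.5, 21.2 and 24.1 CPM in replicates A, B and D. The value of replicate C was 6.66% of that population's own level, and 38 of the 42 stems passed 1 CPM there. The 76 stems that marked eESC in the same way summed to between 0.143 and 0.346% of their own level in the 6 gESC libraries. Replicate C of eESC_10d therefore stood apart, and values without it are given where they matter. Totals ran from 17159718 to 31723680 counts in the sorted libraries and were 15457132 and 13971099 in the unsorted actin and cnnos1 libraries. In sorted libraries the members held 0.454 to 0.838% of all counts.

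Members tended to have more contigs than the stems led by 1 contig. Their median was 3 contigs, with a highest number of 14, and 43.0% of members had exactly 2. Among the 1841 stems with the same main contig in both layers the median was 2 contigs, and 59.2% had exactly 2. This difference was not tested. Mean stem levels over the 4 epithelial groups ran from 15.4 to 578 CPM in members, with a median of 39.8 CPM, against a median of 45.1 CPM in stems with the same main contig. No 2 members shared the first field of their identifiers.

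For each member the epidermal contig is the one that led in eESC and the gastrodermal contig the one that led in gESC. The epidermal-contig share is the epidermal contig's part of the counts of both, in percent. Its median over the 93 members was 72.5 to 81.4% in the 4 eESC_10d libraries and 77.7 to 82.9% in the 3 eESC_3d libraries, against 19.1 to 22.9% in the gESC_10d and 16.9 to 23.8% in the gESC_3d libraries. The lowest of the eESC medians was that of eESC_10d replicate C, which had the lowest share of the 4 libraries of its group in 53 members. Within a group the shares of a member had a median SD of 3.47 to 5.08 points. Large spreads occurred too, with an SD over 20 points in 2 members in eESC_10d, 8 in eESC_3d, 1 in gESC_10d and 9 in gESC_3d.

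**Figure D1:**
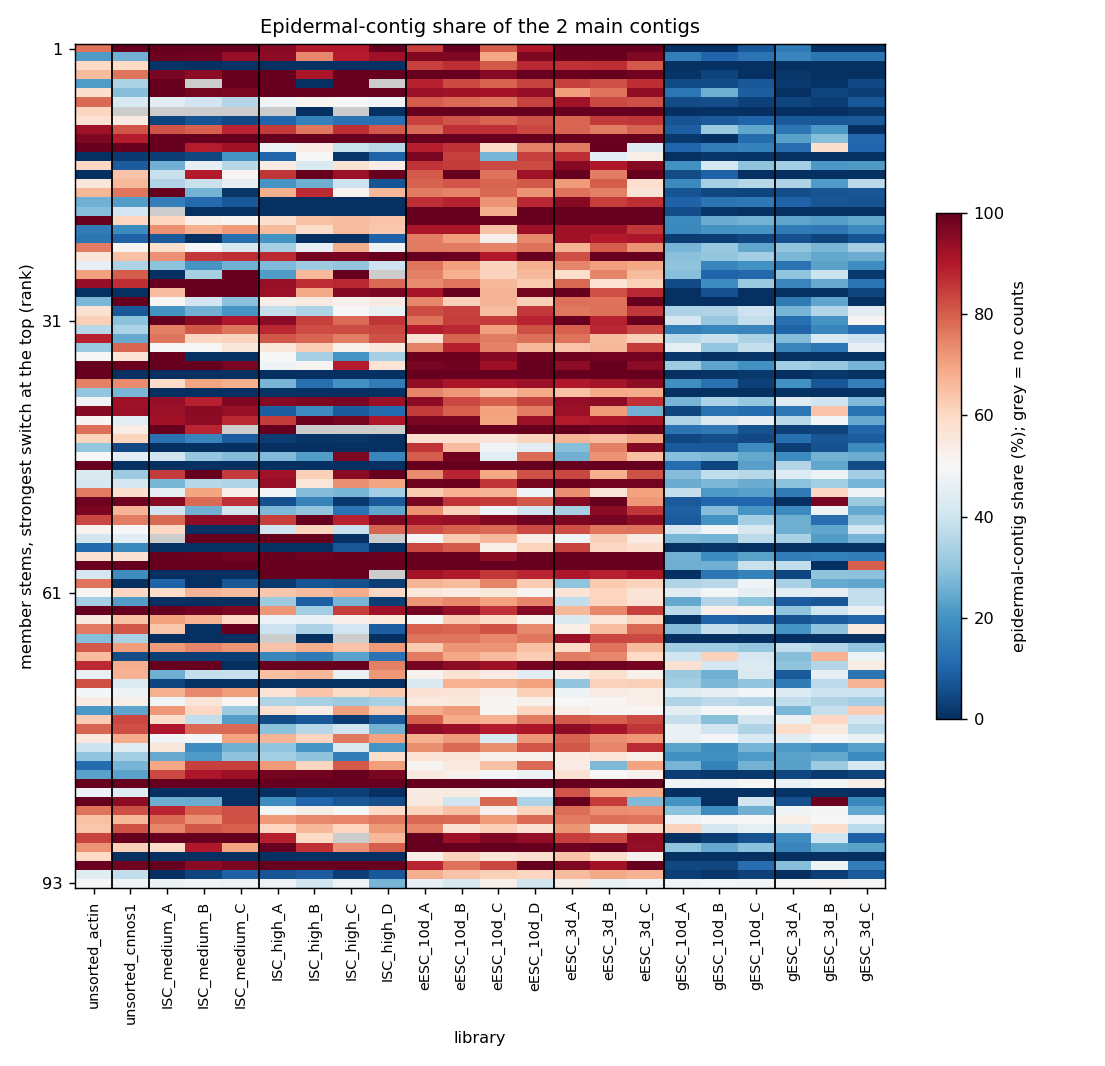
Epidermal-contig share of the 2 main contigs, in percent, in every library (columns, grouped by population) for the 93 members (rows, ordered by strength). The eESC columns are mostly red and the gESC columns mostly blue because the members were chosen on these values, while the unsorted and ISC columns, which the choice did not use, hold every colour.

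The libraries of the layers were often fully apart. In 74 of 93 members every one of the 7 eESC libraries had a higher epidermal-contig share than every one of the 6 gESC libraries, and in 75 without eESC_10d replicate C. At 10 days this held for 89 members and at 3 days for 77. Over all 2478 stems at the CPM minimum, the share of the 2 largest contigs did not overlap between the layers, in either direction, in 12.5% at both times together, 33.7% at 10 days and 23.2% at 3 days. Since the rule used this contrast, nothing is read from the difference. The mean share differed between eESC and gESC by a median of 56.8 points, with 14 members over 80 points and 6 under 20 points. In 58 members the epidermal contig held over 50% in every eESC library and under 50% in every gESC library. Single libraries went against their layer most often in gESC_3d replicate B, with 11 members, and in eESC_3d replicate A, with 10.

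Few members had a contig at or near 0 throughout a layer. The epidermal contig had at most 3 counts in every gESC library in only 2 members, and the gastrodermal contig had at most 3 counts in every eESC library in 5 members, or in 7 without eESC_10d replicate C. No member met both conditions, with or without that library. The strength of a member is the smallest of the 4 shares the rule used. It had a median of 58.3% and reached 80% in 6 members, while 39 members lay between 50 and 55%.

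The strongest member was c23980_g1, a stem of 2 contigs whose total was similar in the layers. Its epidermal contig c23980_g1_i02 had 12.0, 19.3, 15.1 and 20.0 CPM in eESC_10d and 13.6, 15.3 and 16.4 CPM in eESC_3d, against 0, 0 and 1.26 CPM in gESC_10d and 2.17, 0 and 0 CPM in gESC_3d. Its gastrodermal contig c23980_g1_i01 had 2.20, 0, 3.67 and 2.13 CPM in eESC_10d and 0 CPM in all 3 eESC_3d libraries, against 11.1, 19.9 and 15.7 CPM in gESC_10d and 12.6, 14.5 and 9.98 CPM in gESC_3d. Neither contig overlapped between the layers. The mean share was 88.8 ± 8.48% in eESC_10d (SD, n = 4) and 100% in each eESC_3d library, against 2.48 ± 4.30% in gESC_10d and 4.89 ± 8.47% in gESC_3d (SD, n = 3 each).

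The member c20624_g1, a stem of 3 contigs, was at once among the strongest and the most abundant. Its epidermal contig c20624_g1_i02 had 434, 501, 465 and 571 CPM in eESC_10d and 456, 591 and 477 CPM in eESC_3d, against 2.75, 2.89 and 1.61 CPM in gESC_10d and 0.935, 0.927 and 1.69 CPM in gESC_3d. The gastrodermal contig c20624_g1_i01 had 80.5, 76.6, 111 and 81.1 CPM in eESC_10d and 70.9, 87.9 and 116 CPM in eESC_3d, against 544, 601 and 516 CPM in gESC_10d and 431, 475 and 817 CPM in gESC_3d. The epidermal contig was thus close to absent from gESC, while the gastrodermal contig was found in both layers at different levels. The stem as a whole had a similar level in both layers, at 514, 577, 575 and 652 CPM in eESC_10d against 547, 604 and 518 CPM in gESC_10d, and these libraries overlapped.

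In c18807_g1, a stem of 2 contigs, the gastrodermal contig was the one close to absent from the other layer. The gastrodermal contig c18807_g1_i02 had 0.607, 0.867, 7.62 and 0.722 CPM in eESC_10d and 0.117, 0.108 and 0.730 CPM in eESC_3d, against 35.8, 62.7 and 49.1 CPM in gESC_10d and 25.3, 26.5 and 37.3 CPM in gESC_3d. The highest of these eESC values, 7.62 CPM, came from eESC_10d replicate C. The epidermal contig c18807_g1_i01 had 16.1, 21.5, 17.2 and 20.7 CPM in eESC_10d against 6.57, 7.16 and 7.35 CPM in gESC_10d. The epidermal contig was thus lower in gESC but present in all its libraries.

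The other 3 of the 6 strongest members were c20489_g1, c25643_g1 and c22744_g1. In c20489_g1, a stem of 5 contigs, the epidermal-contig share was 95.7 to 100% over the 7 eESC libraries and 0 to 3.66% over the 6 gESC libraries. In c25643_g1 it was 79.6 to 88.3% in eESC and 0.802 to 7.49% in gESC. In c22744_g1 it was 91.6 to 94.0% in eESC_10d and 71.1 to 94.3% in eESC_3d, against 8.75 to 25.5% in gESC_10d and 0 to 3.57% in gESC_3d. In none of these 3 did the layers overlap.

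**Figure D2:**
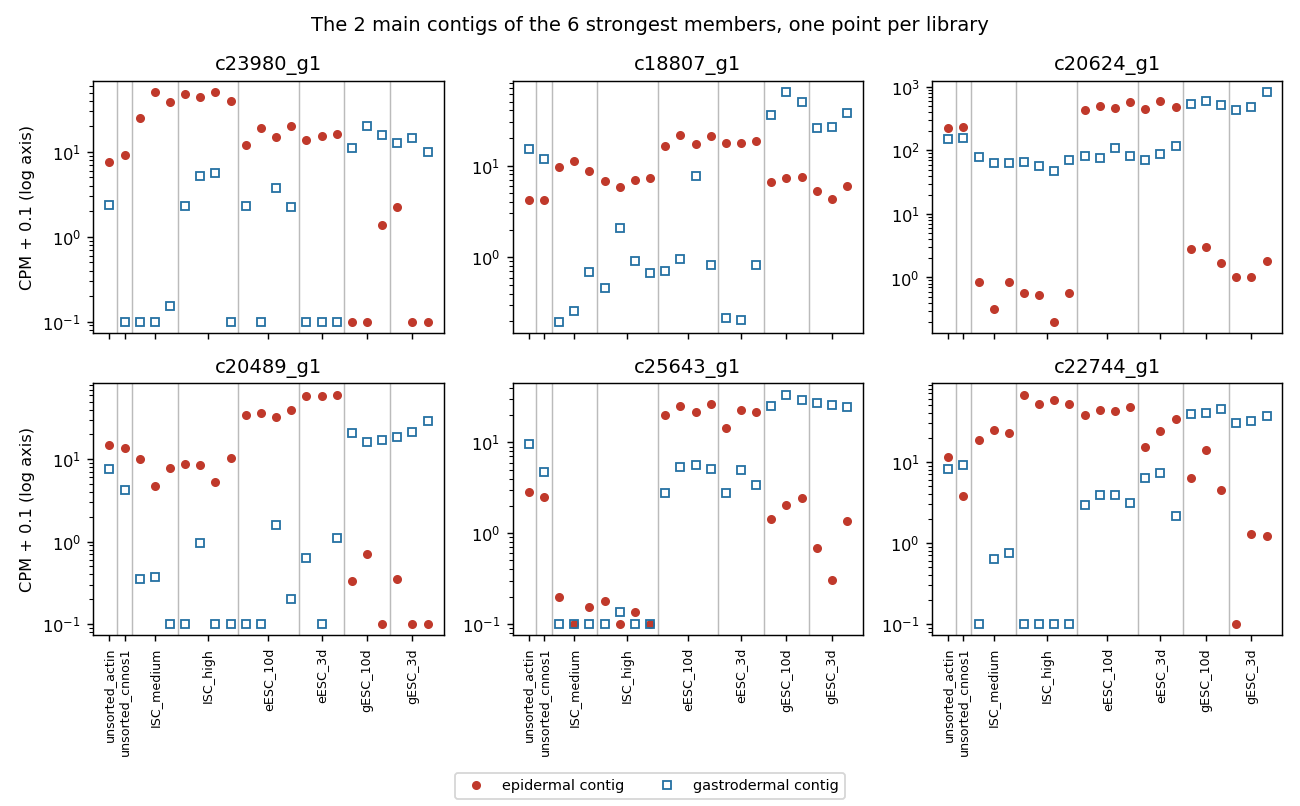
CPM of the epidermal contig (filled circles) and the gastrodermal contig (open squares) of the 6 strongest members, one point per library, on a log axis after adding 0.1 CPM; vertical lines separate the groups. In the eESC groups the circles lie above the squares and in the gESC groups below them, with the layer values having chosen these members; the ISC and unsorted libraries show either order, and c25643_g1 is near 0 in both ISC gates.

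After c20624_g1, the most abundant members were c22558_g1, c23525_g1 and c23715_g1, and they differed in how steady their contig balance was. The stem c22558_g1, with 6 contigs, had shares of 98.8, 99.0, 85.8 and 97.96% in eESC_10d and 99.1, 98.3 and 98.2% in eESC_3d, against 25.02, 27.4 and 25.1% in gESC_10d and 29.5, 33.1 and 26.7% in gESC_3d. Its epidermal contig differed little between the layers (158 to 194 CPM in eESC_10d, 107.7 to 152 CPM in gESC_10d), and its gastrodermal contig differed more (1.89 to 28.8 CPM in eESC_10d, 322 to 456 CPM in gESC_10d). The stem c23525_g1 had 100% in all 4 eESC_10d libraries and 98.5, 99.8 and 93.9% in eESC_3d, against 29.8, 24.99 and 29.3% in gESC_10d and 16.9, 23.9 and 23.2% in gESC_3d. Neither stem overlapped between the layers.

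The stem c23715_g1 showed how far single libraries could depart from their group. Its share was 84.9, 79.8, 70.2 and 75.4% in eESC_10d and 92.7, 71.5 and 26.1% in eESC_3d, against 4.23, 12.6 and 11.5% in gESC_10d and 13.8, 64.3 and 12.8% in gESC_3d. Replicate C of eESC_3d and replicate B of gESC_3d thus had the other layer's leading contig, and the layers overlapped at 3 days but not at 10 days. Its stem total showed no such departure, with 147, 197 and 202 CPM in eESC_3d. A like pattern was seen in c22991_g1, with shares of 100, 84.8 and 27.9% in eESC_3d against 5.92, 99.1 and 17.6% in gESC_3d.

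At the limits of the rule, membership turned on small differences. The weakest member was c25208_g1, a stem of 2 contigs with 50.2 and 50.1% of its CPM in the epidermal contig in eESC_10d and eESC_3d, and 51.1 and 50% in the gastrodermal contig in gESC_10d and gESC_3d. Taken library by library, its share was 46.0, 42.2, 52.4 and 40% in eESC_10d and 53.1, 47.1 and 48.5% in eESC_3d, against 48.7, 49.4 and 48.7% in gESC_10d and 49.7, 50.6 and 49.95% in gESC_3d. Both contigs were thus near a tie in most libraries. In eESC_10d only replicate C, which held gESC-marking transcripts, was over 50%, so c25208_g1 met the rule in that group through this library. The same stem is the only member whose mean share was lower in eESC than in gESC, by 2.14 points. The next weakest member, c26113_g1, was no tie, with 50.1% of the stem in the epidermal contig in eESC_10d but 90.1% in the gastrodermal contig in gESC_10d. Just outside, c23960_g1 missed with 49.9% in eESC_10d and c22785_g1 with 49.9% in gESC_3d. At the CPM limit, c21594_g2 was inside with a lowest group mean of 10.3 CPM, and c18213_g1 was outside with 9.93 CPM.

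The requirement at both times allowed each time to be looked at in libraries that had not chosen the stem. With the rule applied to the 3-day groups alone, 186 stems switched, and 184 of them met the CPM minimum at 10 days. Of these 184, 93 (50.5%) had the same switch at 10 days, 71 had the same main contig in both layers, 5 had another pair of contigs and 15 had none at 50%. The epidermal-contig share in the 10-day libraries was higher in eESC than in gESC in 164 of the 184, without overlap between the layers in 126 (68.5%), with a median difference of 38.0 points. The share without overlap at 10 days over all stems at the CPM minimum was 33.7%, in either direction.

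With the rule applied to the 10-day groups alone, 200 stems switched, and 174 of them met the CPM minimum at 3 days. Of these 174, 93 (53.4%) had the same switch at 3 days, 59 had the same main contig in both layers, 5 had another pair and 17 had none. The share in the 3-day libraries was higher in eESC in 154, without overlap in 104 (59.8%), with a median difference of 34.9 points, beside 23.2% without overlap over all stems at the minimum. In both directions the 93 stems that switched again are the members themselves.

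The levels of each contig and of the stem sum were also compared between the layers. Between the group means (with 0.5 CPM added), the epidermal contig had a median log2 ratio of eESC to gESC of 2.34 at 10 days and 2.02 at 3 days. The gastrodermal contig had medians of -1.63 at 10 days and -1.68 at 3 days. The stem sum had medians of 0.213 at 10 days and 0.157 at 3 days, and 67 members at 10 days and 64 at 3 days had sums within 2-fold. The choice of members sets the epidermal contig's ratio above the gastrodermal contig's, so the medians of contigs and sums are not weighed against each other. It does not fix the signs. At 3 days the epidermal and gastrodermal contigs had 5.69 and 1.51 in c23319_g1, and -0.508 and -5.69 in c25982_g1. The sums ran from -2.58 to 3.02 at 10 days and from -2.99 to 3.46 at 3 days, with members in both directions.

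**Figure D3:**
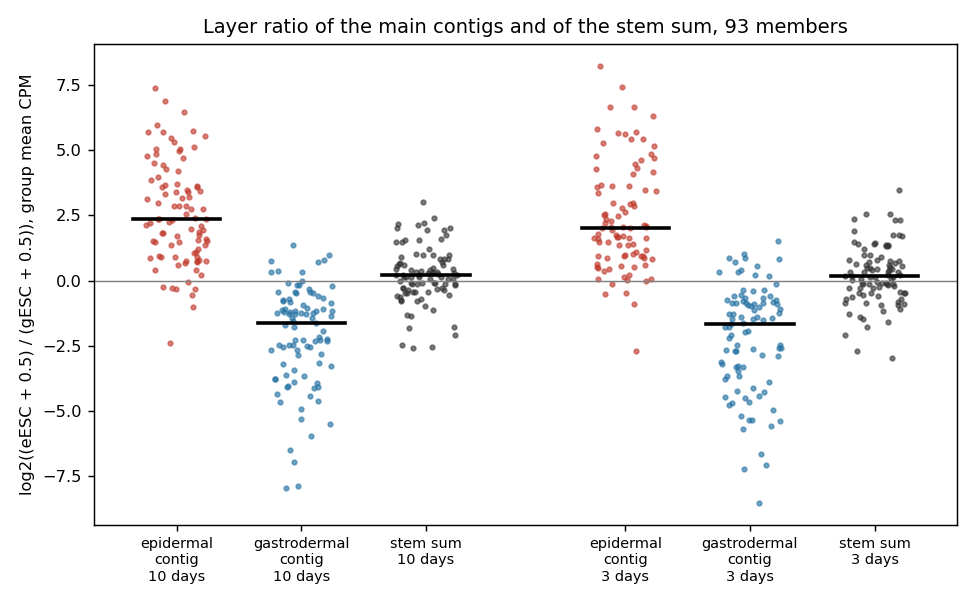
log2 ratio of eESC to gESC group mean CPM, after adding 0.5 CPM, for the epidermal contig, the gastrodermal contig and the stem sum of each of the 93 members at 10 days and at 3 days; points are members and bars are medians. The contig medians are 2.34 and -1.63 at 10 days and 2.02 and -1.68 at 3 days, and their order is set by the choice of members. The medians of the stem sums are 0.213 at 10 days and 0.157 at 3 days.

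Stem sums were fitted over 18288 stems in all 20 sorted libraries with edgeR's quasi-likelihood test, with a call where the p adjusted by Benjamini and Hochberg's method was under 0.05. Between eESC_10d and gESC_10d, 52 members (55.9%) were called, 27 higher and 25 lower in eESC_10d, where 51.9% of all stems and 41.0% of the other 2385 stems at the CPM minimum were called. Between eESC_3d and gESC_3d, 55 members (59.1%) were called, 28 higher and 27 lower in eESC_3d, beside 49.6% of all stems and 42.6% of the other stems at the minimum. The rule drew on the same contrast, so nothing is read from these shares. The 48 members called at both times had the same direction at both, and 34 members were called at neither time, of which 33 had fitted changes within 2-fold at both.

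The layer differences of stem sums covered both directions. The largest fold change towards eESC was that of c23319_g1, with 237, 271, 275 and 250 CPM in eESC_10d and 412, 300 and 311 CPM in eESC_3d, against 20.6, 38.9 and 34.5 CPM in gESC_10d and 40.3, 40.3 and 11.0 CPM in gESC_3d. Its fitted log2 fold change was 2.91 (SE 0.413) at 10 days and 3.26 (SE 0.432) at 3 days. Each SE given here is the size of the fold change divided by the square root of the test's F statistic, so it restates the test. The stem c26113_g1 had 122, 137, 110 and 134 CPM in eESC_10d, against 19.5, 27.4 and 23.7 CPM in gESC_10d, with a log2 fold change of 2.27 (SE 0.155). The stem c23642_g1 had 54.2, 84.6 and 78.1 CPM in eESC_3d, against 12.2, 10.4 and 13.2 CPM in gESC_3d, with a log2 fold change of 2.40 (SE 0.314). The layers did not overlap in any of these 3 stems.

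Lower in eESC was c25982_g1, with 17.6, 24.0, 35.5 and 23.2 CPM in eESC_10d and 16.8, 16.1 and 22.5 CPM in eESC_3d, against 133, 171 and 147 CPM in gESC_10d and 147, 156 and 148 CPM in gESC_3d. Its log2 fold change was -2.73 (SE 0.197) at 10 days and -3.21 (SE 0.225) at 3 days. Also lower was c25215_g2, with 68.9, 68.6, 82.0 and 65.4 CPM in eESC_10d against 479, 440 and 364 CPM in gESC_10d, with a log2 fold change of -2.74 (SE 0.284). In both stems the highest eESC_10d value was that of replicate C. The stem c25208_g1, the near tie, had 66.6, 50.1 and 34.5 CPM in eESC_3d against 375, 228 and 395 CPM in gESC_3d (log2 -2.86, SE 0.926). It had in eESC_10d 156 CPM in replicate C against 11.2, 12.1 and 19.9 CPM in the others.

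Most members were lower in interstitial cells than in an epithelial layer, though 60 of 93 had at least 10 CPM in ISC_high and 9 had under 1 CPM. Between ISC_high and eESC_3d, 86 members (92.5%) were called by edgeR, 22 higher and 64 lower in ISC_high, where 67.3% of all stems were called. Between ISC_high and gESC_3d, 80 members (86.0%) were called, 21 higher and 59 lower, beside 65.5% of all stems. The median log2 fold change of the members was -1.51 against eESC_3d and -1.45 against gESC_3d, and over all stems it was -0.0623 and 0. The ISC came from cnnos1::eGFP animals and the layers from actin::eGFP animals, so cell type and animals cannot be told apart in these comparisons. All eESC_3d libraries were also of lower depth than all ISC_high libraries, so depth cannot be told apart from either in that comparison. With a term for depth class in the fit, 7807 of 18288 stems were called between ISC_high and eESC_3d, beside 12305 without it. The rule asked for 10 CPM in the epithelial groups and set no minimum in ISC. The other 2385 stems at the same minimum had medians of 0.0676 against eESC_3d and -0.0328 against gESC_3d, with 908 of them called lower and 927 higher in ISC_high against eESC_3d, and 950 lower and 836 higher against gESC_3d. A total of 56 members were called lower in ISC_high than in both layers and 16 higher than in both, in comparisons that share the ISC_high libraries. Over all stems 22.7% were lower and 22.3% higher than in both, and over the other stems at the CPM minimum 32.8% and 30.4%.

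The largest falls were to nearly no counts. The stem c25643_g1, one of the 6 strongest, had 0.0794, 0.0357, 0.0340 and 0 CPM in ISC_high, against 17.0, 27.4 and 24.8 CPM in eESC_3d and 27.8, 25.7 and 25.7 CPM in gESC_3d. These ISC_high values are 2, 1, 1 and 0 counts, and the fitted log2 fold changes of -9.30 (SE 0.322, adjusted p = 2.15e-14 by edgeR) and -9.71 (SE 0.322, adjusted p = 3.01e-14) rest on them. An SE taken from the F statistic does not give the precision of a fold change at such low counts, here or in the stems below. The stem c16773_g1 had 0.119, 0.214, 0.0340 and 0 CPM in ISC_high, against 42.2, 45.3 and 60.1 CPM in eESC_3d (log2 -9.22, SE 0.441, adjusted p = 1.28e-12 by edgeR). The stem c20036_g1 had 0.198, 0.499, 0.238 and 0.155 CPM in ISC_high, against 126, 129 and 128 CPM in gESC_3d (log2 -9.27, SE 0.270, adjusted p = 2.12e-14 by edgeR). No library of ISC_high came near those of the layers. In bulk libraries, fewer cells of a type and less RNA per cell cannot be told apart.

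The highest member in ISC_high relative to the layers was c25005_g1. It had 208, 155, 192 and 177 CPM in ISC_high, against 15.8, 17.1 and 10.1 CPM in eESC_3d and 30.9, 29.1 and 23.3 CPM in gESC_3d. The log2 fold change was 3.43 (SE 0.212, adjusted p = 5.05e-11 by edgeR) against eESC_3d and 2.28 (SE 0.199, adjusted p = 1e-08) against gESC_3d, and no library overlapped. The stem c23338_g1 had 142, 104, 139 and 86.2 CPM in ISC_high, against 20.5, 25.9 and 25.4 CPM in eESC_3d (log2 2.07, SE 0.185, adjusted p = 1.06e-08 by edgeR). The stem c22823_g1 had 163, 169, 197 and 138 CPM in ISC_high, against 33.4, 36.5 and 27.8 CPM in gESC_3d (log2 1.91, SE 0.246, adjusted p = 1.55e-06 by edgeR). Neither overlapped with its comparison group.

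The libraries of interstitial cells held neither layer's contig throughout. Their shares, too, come from cnnos1::eGFP animals, and a difference from the layers cannot be told apart from one between the animals. In ISC_high the epidermal-contig share was over 50% in 51 members and under 50% in 42, and the contig that led the whole stem was the epidermal one in 47, the gastrodermal one in 41 and another in 5. Shares were over 90% in 17 members, under 10% in 19 and in between in 57. Against the layers' 3-day means, 48 members lay between them, 23 at or above eESC_3d and 22 at or below gESC_3d. Since many members were low in ISC, the same was looked at in the 67 members with at least 100 counts of the 2 contigs. There the share was 10 to 90% in 43, over 90% in 13 and under 10% in 11. ISC_medium gave a similar picture, with 51 of 92 members over 50% and a leading contig that was the epidermal one in 49, the gastrodermal one in 37 and another in 7.

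Examples of each kind were steady over the libraries. In c13457_g1, a stem of 3 contigs, all reads of the 2 contigs in ISC_high were of the epidermal contig, at 29.6, 19.6, 20.7 and 23.6 CPM, as in eESC_3d, which had 99.1 to 100%, against 10.8 to 28.6% in gESC_3d. In c23143_g1 the ISC_high libraries likewise held 100% epidermal contig, at 16.8, 18.8, 20.9 and 17.8 CPM. So did those of c22744_g1, with 67.3, 52.0, 58.3 and 51.8 CPM of the epidermal contig and 0 CPM of the gastrodermal one. In c19119_g1 they held 0% epidermal contig, with 13.8, 12.0, 10.3 and 14.8 CPM of the gastrodermal contig, whereas eESC_3d had 100% in all 3 libraries and gESC_3d 35.4, 23.8 and 5.15%. The ISC_high share of c19119_g1 thus lay below that of gESC_3d itself, as did that of c14996_g1, at 0% in all 4 libraries with 36.3 to 47.8 CPM of the gastrodermal contig, against 15.2, 37.0 and 67.1% in gESC_3d.

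Both contigs were found at similar levels in c25878_g1 and c12910_g1. In c25878_g1 the epidermal-contig share was 48.1, 50.9, 49.7 and 48.4% in ISC_high, against 92.1, 83.2 and 82.3% in eESC_3d and 4.06, 2.59 and 7.77% in gESC_3d. All ISC_high libraries lay between the layers, with no overlap. In c12910_g1 the share was 47.1, 46.6, 52.5 and 55.2% in ISC_high, against 42.9, 56.0 and 61.3% in eESC_3d and 6.50, 8.30 and 9.98% in gESC_3d, so that ISC_high overlapped with eESC_3d but not with gESC_3d.

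Between the interstitial gates, contig use was tested within stems, a contrast the choice of members had not touched. In edgeR's stem-level test of relative contig use over 5929 stems, 27 members (29.0%) were called between ISC_medium and ISC_high, beside 19.5% of all stems and 31.8% of the other tested stems at the CPM minimum. With limma 27 members were called too, beside 24.9% of all stems and 36.9% of the others at the minimum, and 20 members were called by both. On simulated counts the edgeR test made more false calls than its threshold allows and limma did not. The simulation drew every contig independently and with the same spread, so it does not show how either test behaves on these data. Of the 27 edgeR calls, 15 had a higher and 12 a lower epidermal-contig share in ISC_medium, by a median of 18.3 points in size, and 19 did not overlap. Overlap between the gates was not counted over the other stems, so nothing about the members is read from the 19. Over all members the gates were on the same side of 50% in 76 and within 10 points in 52, and over 50 points apart in 3. All ISC_medium libraries were of lower depth than all ISC_high libraries, so depth and gate cannot be told apart, and with a term for depth class 12 members were called, beside 5.13% of all stems.

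The largest rise of the share among the calls between the gates was in c23715_g1, with 93.04, 94.98 and 93.5% in ISC_medium against 8.70, 18.4, 8.53 and 11.7% in ISC_high (adjusted p = 1.8e-06 by edgeR and 3.41e-09 by limma). The gates did not overlap, and the stem had 248, 280 and 246 CPM in ISC_medium against 373, 354, 362 and 378 CPM in ISC_high. In c19958_g1 the share was 95.3, 78.3 and 86.6% in ISC_medium against 6.01, 16.7, 1.61 and 7.93% in ISC_high (adjusted p = 0.00576 by edgeR and 0.00105 by limma). With the depth class term neither call held (adjusted p = 0.151 and 0.331 by edgeR), and that of c19958_g1 was also lost with only the 3-day interstitial libraries (adjusted p = 0.139). Both c23715_g1 and c19958_g1 also had libraries against their layer in the epithelial groups, with 97.3% in gESC_3d replicate B in c19958_g1.

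In the opposite direction, c20747_g1, a stem of 7 contigs, had 0% in the 3 ISC_medium libraries against 100% in ISC_high replicates A, B and C, and neither contig had a count in replicate D. These shares rest on little of the stem, since the gastrodermal contig had 1.33, 3.77 and 2.40 CPM of 14.1, 19.1 and 16.7 CPM in ISC_medium, and the epidermal contig 0.953, 7.46 and 3.54 CPM of 24.3, 17.2 and 20.1 CPM in ISC_high replicates A to C. Its adjusted p was 5.68e-07 by edgeR and 0.000112 by limma, and 0.0114 by edgeR with the depth class term. In c22558_g1 the share was 27.3, 35.7 and 35.1% in ISC_medium against 93.6, 56.1, 72.7 and 69.7% in ISC_high, at stem levels of 1.51 to 5.02 CPM in ISC_medium and 1.43 to 3.00 CPM in ISC_high. It was called by edgeR (adjusted p = 0.00842) but not by limma (adjusted p = 0.0926). The edgeR call was also lost with the depth class term (0.238), with only the gates in the fit (0.167), with only the 3-day interstitial libraries (0.162) and without ISC_medium replicate A (0.0516) or B (0.0616).

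**Figure D4:**
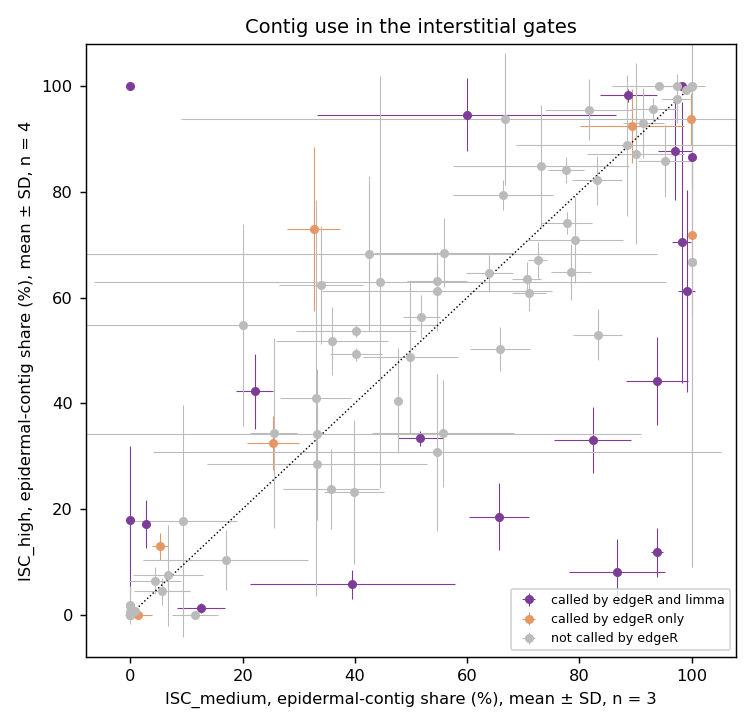
Epidermal-contig share of each member in ISC_medium (horizontal axis, mean ± SD, n = 3) and ISC_high (vertical axis, mean ± SD, n = 4), coloured by the tests of contig use; some SD bars run past the axes. Most members lie near the dotted line of equal shares or at one of its ends, and 3 members lie over 50 points from it.

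The stem sums of the members also differed between the gates. Between ISC_medium and ISC_high, edgeR called 44 members (47.3%), 29 higher and 15 lower in ISC_medium, beside 34.5% of all stems and 49.6% of the other stems at the CPM minimum. With a term for depth class 19 were called, beside 8.82% of all stems. The highest was c10840_g1, with 181, 101 and 145 CPM in ISC_medium against 2.86, 7.03, 12.9 and 5.73 CPM in ISC_high (log2 4.70, SE 0.406, adjusted p = 6.4e-08 by edgeR), followed by c26076_g1, with 10.4, 9.21 and 9.07 CPM against 1.95, 1.03, 0.783 and 1.36 CPM (log2 3.30, SE 0.697, adjusted p = 0.00105). Lower in ISC_medium were c20851_g1, with 1.23, 0.754 and 0.694 CPM against 7.30, 5.39, 6.81 and 6.15 CPM in ISC_high (log2 -2.43, SE 0.609, adjusted p = 0.00408 by edgeR), and c23404_g1, with 10.6, 15.1 and 12.8 CPM against 47.9, 38.2, 46.6 and 37.6 CPM (log2 -1.35, SE 0.136, adjusted p = 4.09e-07). The gates did not overlap in any of these 4 stems, and the calls of c26076_g1 and c20851_g1 were lost with the depth class term.

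Some member sums differed between the starvation times in eESC. Between eESC_10d and eESC_3d, edgeR called 17 members (18.3%), 7 higher and 10 lower in eESC_10d, beside 12.3% of all stems and 17.8% of the other stems at the CPM minimum. All eESC_3d libraries were of lower depth than all eESC_10d libraries, so depth and time cannot be told apart in eESC. With the term for depth class, which rests on the gESC_3d libraries, 0 members were called by edgeR, beside 0.0219% of all stems. Without eESC_3d replicate A 3 members were called, beside 3.38%. The highest, c10840_g1, had 95.7, 74.6, 42.3 and 103 CPM in eESC_10d against 16.1, 26.4 and 15.2 CPM in eESC_3d (log2 1.87, SE 0.391, adjusted p = 0.00658 by edgeR). The stem c23296_g1 had 31.4, 39.98, 27.5 and 40.04 CPM in eESC_10d against 16.4, 19.9 and 13.7 CPM in eESC_3d (log2 0.87, SE 0.185, adjusted p = 0.00706 by edgeR). The lowest were c22434_g1, with 85.8, 71.9, 65.3 and 64.8 CPM in eESC_10d against 145, 134 and 113 CPM in eESC_3d (log2 -1.04, SE 0.224, adjusted p = 0.0074 by edgeR), and c25215_g2, with 68.9, 68.6, 82.0 and 65.4 CPM against 109, 148 and 117 CPM (log2 -0.98, SE 0.276, adjusted p = 0.0273). In these 4 stems the times did not overlap. The call of c22434_g1 was lost without eESC_3d replicate A (adjusted p = 0.0617 by edgeR), and that of c25215_g2 in 7 of the alternative fits.

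In gESC the sums of the members did not pass the test between the times. Between gESC_10d and gESC_3d, edgeR called 0 members, beside 0.0656% of all stems, and 19 members had an unadjusted p under 0.05, beside 13.8% of all stems. DESeq2 called 4 members, beside 2.67% of all stems, and edgeR called 10 without gESC_3d replicate C, beside 5.22%. Whether starvation acted differently in the layers was tested by the interaction of layer and time, and edgeR called 0 members, beside 0.082% of all stems. At an unadjusted p under 0.05 there were 7 members, beside 7.7% of all stems, and the smallest adjusted p of a member was 0.315. A change in eESC that was not called in gESC is therefore not shown to differ between the layers.

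The choice of members required the same leading contigs at both times, so an exchange of the leading contig with starvation could not occur among them, and only smaller changes of contig use could be seen. Between eESC_10d and eESC_3d, edgeR called 9 members (9.68%), beside 13.5% of all stems and 23.0% of the other tested stems at the CPM minimum. With limma 19 members (20.4%) were called, beside 20.2% of all stems and 28.7% of the others, and 6 members were called by both. Of the 9, 8 had a lower epidermal-contig share in eESC_10d. The median change of the 9 was 8.73 points in size, and that of c24078_g1 was 0.152 points. In c18807_g1 and c25982_g1, eESC_10d replicate C, which held gESC-marking transcripts, had 69.3 and 64.5%. The other libraries of its group had 96.1 to 96.6% and 90.6 to 92.7%, and both stems overlapped between the times. The part of replicate C in this direction was not tested. Between gESC_10d and gESC_3d, edgeR called 2 members (2.15%), beside 3.81% of all stems and 6.58% of the others. With limma 6 members (6.45%) were called, beside 6.34% of all stems and 10.5% of the others, and both edgeR calls were among them.

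The largest shift of the share among the called members of eESC was 22.6 points. In c25215_g2 the share was 75.5, 71.1, 52.6 and 74.1% in eESC_10d against 92.3, 89.7 and 90.8% in eESC_3d (adjusted p = 0.0128 by edgeR and 0.000506 by limma). In c24385_g1 it was 54.0, 54.5, 50.2 and 47.7% in eESC_10d against 81.5, 69.4 and 68.7% in eESC_3d (adjusted p = 0.0163 by edgeR and 0.00134 by limma). Neither overlapped, and replicate C of eESC_10d, which held gESC-marking transcripts, was the lowest of its group in c25215_g2 but not in c24385_g1. Both calls were lost with the depth class term, at adjusted p of 0.293 and 0.222 by edgeR, and without eESC_3d replicate A, at 0.074 and 0.194. That of c25215_g2 was also lost without eESC_3d replicate C (0.0508), and that of c24385_g1 without eESC_3d replicate B (0.114) or eESC_10d replicate C (0.078), with a minimum of 5 CPM (0.128) and with the replicate block (0.0554). The single edgeR call with a higher share was c23525_g1, at 100% in all eESC_10d libraries against 98.5, 99.8 and 93.9% in eESC_3d (adjusted p = 1.85e-07 by edgeR and 6.17e-05 by limma). This stem has 4 contigs, and the tests do not say which of them changed.

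The 2 edgeR calls in gESC went in opposite directions. In c22744_g1 the share was 13.9, 25.5 and 8.75% in gESC_10d against 0, 3.57 and 2.89% in gESC_3d, without overlap (adjusted p = 0.0145 by edgeR and 0.00426 by limma). In c24651_g1 it was 0% in all gESC_10d libraries against 14.6, 23.6 and 0% in gESC_3d, and the groups overlapped (adjusted p = 4.83e-05 by edgeR and 0.00987 by limma). The calls of both c22744_g1 and c24651_g1 were lost with only the gESC libraries in the fit, at adjusted p of 0.199 and 0.764 by edgeR. Both were also lost with the depth class term, and that of c22744_g1 without gESC_10d replicate B.

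The labels give the same transgene for both sorted layers, with eGFP in different cells, and do not say whether the animals were of separate lines. Any difference between those animals cannot be told apart from the layer in the sorted libraries. The unsorted libraries hold whole tissue, with stems that marked eESC at 27.1% and 20.2% of their eESC level in the actin and cnnos1 libraries and stems that marked gESC at 25.3% and 30% of their gESC level. In the unsorted actin library both contigs had over 3 counts in 83 of 93 members. Its epidermal-contig share was between 10 and 90% in 74 members, over 90% in 16 and under 10% in 3, with a median of 58.0%. Of the members, 61 lay between the 10-day means of the layers, 25 at or above eESC_10d and 7 at or below gESC_10d. The cnnos1 library gave shares of 10 to 90% in 68 of 92 members, with a median of 54.0%, and 49 members lay between the layers. Most members thus had both contigs in both unsorted libraries. Each unsorted library is 1 sample with no replicate, and intervals given for it cover counting error only.

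The most abundant member had nearly the same mixture in both unsorted libraries. In c20624_g1 the epidermal-contig share was 59.9% in the actin library (95% Wilson interval 58.7 to 61.1%) and 59.9% in the cnnos1 library (58.6 to 61.2%), against 80.8 to 87.6% in eESC_10d and 0.310 to 0.502% in gESC_10d. In c22558_g1 the shares were 41.8% (40.3 to 43.3%) and 41.8% (40.2 to 43.4%). Both stems thus lay well between the layers in each unsorted library. In c18807_g1 the shares were 21.6% (17.3 to 26.7%) and 26.0% (20.7 to 32.2%), between the layers but close to gESC.

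**Figure D5:**
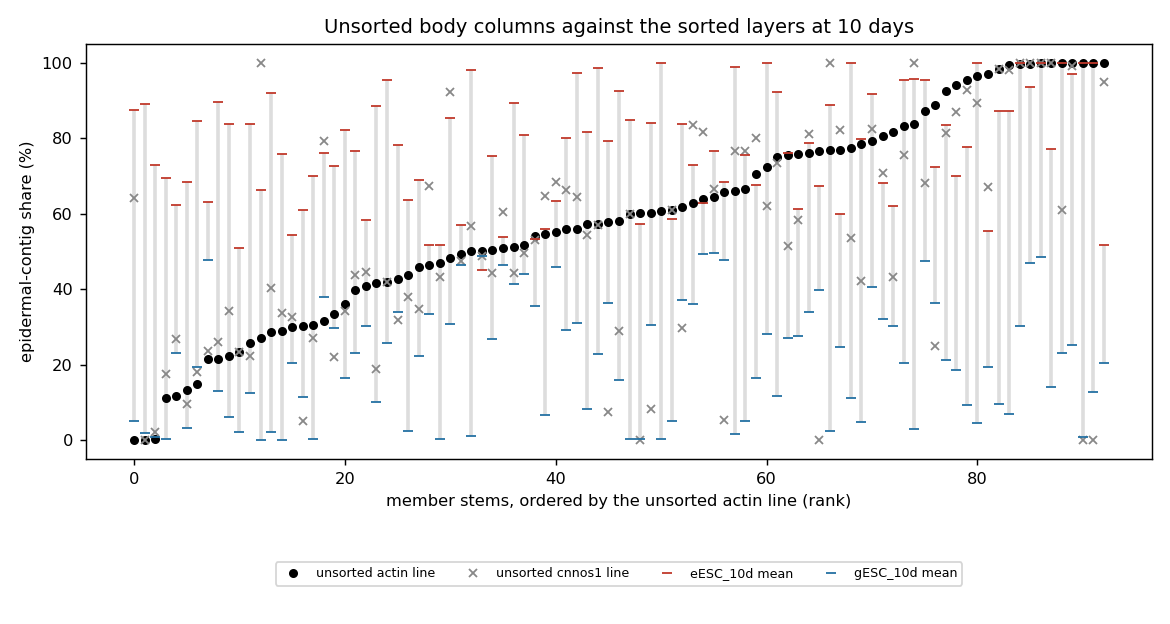
Epidermal-contig share of the 93 members in the unsorted actin library (black points, by which members are ordered) and the unsorted cnnos1 library (grey crosses, 92 members), with the eESC_10d and gESC_10d means (red and blue ticks, joined by a grey bar). In the actin library 61 members lie between the ticks, and 10 members have crosses over 50 points from their black point.

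In a minority of members the unsorted libraries held one contig alone. In the actin library the gastrodermal contig had 0 counts in 6 members and the epidermal contig 0 counts in 2, although it holds cells of both layers. One such member was c22434_g1, a stem of 7 contigs, with 48.6 CPM of its epidermal contig and 0 CPM of its gastrodermal contig in the unsorted actin library (share 100%, Wilson 99.5 to 100%). The gastrodermal contig of c22434_g1 had 51.9, 40.3 and 41.8 CPM in gESC_10d. In the cnnos1 library c22434_g1 was the reverse, with 0 CPM of the epidermal contig and 67.6 CPM of the gastrodermal contig (share 0%, Wilson 0 to 0.405%), and ISC_medium and ISC_high had shares of 0 to 0.319%. In c19119_g1 the share was likewise 100% (Wilson 98.3 to 100%) in the actin library and 0% (Wilson 0 to 1.43%) in the cnnos1 library, with 0% in all 7 ISC libraries.

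Other members were at one end in both unsorted libraries. The stem c22991_g1 had a share of 100% (Wilson 99.7 to 100%) in the actin library and 94.9% (93.2 to 96.2%) in the cnnos1 library, whereas it had 54.5, 40.1, 78.6 and 34.1% in eESC_10d and 20.1, 0 and 40.9% in gESC_10d. Both unsorted libraries were thus above every 10-day sorted library. Among members with at least 100 counts of the 2 contigs, the lowest shares in the actin library were those of c22275_g1, at 0% (Wilson 0 to 3.47%), and of c20699_g1, at 0.341% (0.186 to 0.627%). In the cnnos1 library these were 0% (0 to 5.50%) and 2.23% (1.79 to 2.77%), while eESC_10d had 67.1 to 100% in c22275_g1 and 26.6 to 97.1% in c20699_g1. The unsorted level of c20699_g1 was 190 and 251 CPM, against 6.66 to 23.2 CPM in eESC_10d and 7.16 to 19.8 CPM in gESC_10d.

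The unsorted libraries were on the same side of 50% in 70 members and within 10 points in 50. In the 10 members in which they were over 50 points apart, the actin library was the higher one in 8, among them c19119_g1 and c22434_g1, and the lower one in 2, c20760_g1 and c24651_g1. In 8 of these 10 members ISC_high, which comes from cnnos1::eGFP animals, lay on the cnnos1 library's side of 50%. Over all members compared, ISC_high lay on the side of the cnnos1 library in 56 of 92 and on the side of the actin library in 48 of 93. The part of differences between animals in the contig shares of the layers was not tested.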

How the data were processed

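Sequencing counts per contig were analysed in 22 libraries, of which 20 were sorted. The values are whole-number counts as deposited by the authors, and the largest carry only 6 significant digits. Per the submitters' processing notes, cutadapt 1.11, Salmon 0.7.2 and DESeq2 were used, with no role or order given, and the transcriptome is not given in the sources used here. Per the labels' protocols the libraries were polyA-enriched and directional.

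CPM and shares used column totals, and log2 ratios of group means used 0.5 CPM as pseudocount. Stem sums were fitted with edgeR 4.0.16 (R 4.3.3) by the quasi-likelihood test with TMM scaling, over all 20 sorted libraries with 6 groups and no covariate, after a filter on low counts (minimum 10, minimum total 15). This kept 18288 stems and 28522 contigs with 99.7 to 99.9% of the counts, and the biological coefficient of variation was 0.294. Contig use was tested with edgeR's stem-level test of relative use, with limma 3.58.1 (voom and diffSplice) beside it. DESeq2 1.42.0 was an alternative. P-values were Benjamini-Hochberg adjusted over all stems tested. Fits were tested on simulated data, where edgeR's test of contig use made more false calls than its threshold and limma did not. The simulated contigs were independent and had the same spread, unlike contigs that share reads. Tables and figures used Python 3.11.15 with pandas 2.3.3, numpy 2.4.6, scipy 1.17.1 and matplotlib 3.10.9.

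Wilson intervals (95%) and the floor of 3 counts cover counting error only, since reads carry no molecular identifiers. Replicates were not identical beyond sampling noise and each counted as 1. Replicate letters are shared between groups, but in no comparison did every same-letter pair correlate over 0.1 (range -0.375 to 0.341), so they were not taken as pairs.

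Named members were, by a set rule, the 6 of greatest strength, the 4 most abundant, those at the limits of the rule, the 2 highest and 2 lowest called changes without overlap in each stem comparison, the 2 largest rises and falls of contig use, and the 2 highest, 2 lowest and, in ISC_high, 2 nearest to 50% by share. The members and lists were chosen with earlier results of these data known. The depth class term, the stems marking a layer, the set of the other 2385 stems at the CPM minimum and the counts of unsorted libraries far apart were chosen after seeing the data.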

Additional observations from a re-analysis of the deposited data

Results flagged for a closer look

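Among 144 sets of 4 libraries (the stem CPM or epidermal-contig share of a named member in eESC_10d or ISC_high), 12 held a library far from the other 3 by Dixon's criterion, which marks about 5% of sets by chance. Several of them concerned eESC_10d replicate C, which also held gESC-marking stems. The epidermal-contig share there was 69.3% in c18807_g1 (96.1 to 96.6% in the others), 95.7% in c20489_g1 (99.8 to 100%), 85.8% in c22558_g1 (97.96 to 99.0%), 64.5% in c25982_g1 (90.6 to 92.7%) and 99.6% in c23642_g1 (100%). The stem c25208_g1 had 156 CPM there, against 11.2 to 19.9 CPM in the others. The part of gESC transcripts in these values was not tested.

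In eESC_10d replicate A the share was 42.6% in c14996_g1 (67.3 to 70.2% in the others) and 57.1% in c23338_g1 (75.8 to 79.0%). In ISC_high replicate B it was 90.7% in c20489_g1 (100%) and 69.0% in c22275_g1 (93.3 to 96.9%). The stem c20489_g1 had 8.64 CPM in ISC_high replicate C (12.3 to 12.7 CPM in the others), and c18807_g1 had 7.02 CPM in ISC_high replicate A (7.73 to 7.74 CPM).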

How the results depend on the processing

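The number of members, 93, depended most on the rule. It was 184, 40 and 6 with share minima of 40, 60 and 80%, 186 with the 3-day groups alone and 200 with the 10-day groups alone, and 84 to 102 with single replicates left out. The median epidermal-contig share was 56.2% in ISC_medium and 53.3% in ISC_high. Over the whole stem it was 48.7% and 46.2%, and with at least 100 counts 65.5% and 58.5%.

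Calls of stem sums between eESC_10d and eESC_3d (17) were 9 with no filter, 33 with only these groups, 0 with the depth class term and 3 to 14 with single replicates left out. Over all stems these settings gave 1369 of 44296, 3833 of 15166, 4 of 18288, and 661 to 2113 calls. Between gESC_10d and gESC_3d (0) the members called were 2 with a minimum of 5 CPM, 4 with DESeq2 and 0 to 10 with single replicates left out. Over all stems the calls were 230 of 9196, 488 of 18288, and 0 to 1013. Between the interstitial gates (44) the members called were 19 with the depth class term and 36 to 45 with single replicates left out. Over all stems the calls were 1613 of 18288, and 5200 to 6196. The other stem comparisons stayed within 1.5 times, with 46 to 53 (eESC_10d and gESC_10d), 48 to 53 (eESC_3d and gESC_3d), 83 to 86 (ISC_high and eESC_3d) and 75 to 79 (ISC_high and gESC_3d) when single replicates were left out. Over all stems 8664 to 9113, 8316 to 8773, 11692 to 12034 and 11401 to 11746 were then called. Calls of contig use between the gates (27) were 12 with the depth class term, 17 with only these groups and 20 to 28 with single replicates left out. Over all stems the calls were 304 of 5929, 989 of 4176, and 880 to 1033. In eESC (9) the members called were 19 with limma, 4 with the depth class term and 5 to 10, beside 1200 of 5929, 153 of 5929, and 444 to 685 stems. In gESC (2) they were 4 with 5 CPM, 6 with limma, 0 with only these groups and 1 to 7. Over all stems the calls in gESC were 162 of 1813, 376 of 5929, 86 of 4236, and 98 to 613. The fold change of c22434_g1 between eESC_10d and eESC_3d reversed to 0.022 (log2) with the depth class term. Depth class coincides with gate, with time in eESC, and with the comparison of ISC_high and eESC_3d. Its term was estimated from the gESC_3d libraries alone, the only group with both classes, and the cause of these changes was not tested. Over the named members and all settings, 14 values of stem sums lost their call, 1 reversed and 353 kept direction and call. Of the values of contig use, 23 lost their call and 105 kept it, and their direction was not checked.

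With the replicate block, 15 members were called between eESC_10d and eESC_3d and 44 between the gates by stem sums, beside 1963 and 5917 of 18288 stems. By contig use 21 and 6 members were called in the gates and in eESC, beside 870 and 567 of 5929 stems. The contig use call of c24385_g1 in eESC was lost (adjusted p = 0.0554 by edgeR). The letters are names only, and no pairing is read from them.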

Other observations

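Some members were higher in the unsorted body columns than in any sorted population. The stem c25208_g1 had 2917 CPM in the unsorted actin library and 4675 CPM in the cnnos1 library, against 11.2 to 156 CPM in eESC_10d and 130 to 483 CPM in gESC_10d. Its contigs were near a tie in both unsorted libraries, at 50.1% (95% Wilson interval 49.6 to 50.6%) and 48.8% (48.4 to 49.2%). The stem c10840_g1 had 243 and 210 CPM in the unsorted libraries, against 42.3 to 103 CPM in eESC_10d and 24.5 to 28.2 CPM in gESC_10d, and reached 101 to 181 CPM in ISC_medium. Each unsorted library is 1 sample, and no cause was tested.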
